A study of Mus musculus with 8 samples.

Results

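On mouse chromosome 14, the 35 Mb between positions 80000000 and 114999999 of the mm9 assembly are a long stretch in which hotspots of the chromatin remodelers Brg1, CHD4 and Snf2h are thinly spread. A hotspot is an interval enriched for sequence tags after chromatin immunoprecipitation. Hotspots that start in this distal window were taken from 6 lists and merged where they overlapped by at least 1 bp, which gave 5490 regions of the 532751 found genome-wide. The rest of chromosome 14 held 17603. A region was assigned an antibody only when both libraries of that antibody had a hotspot in it, and such a region is called replicated below. The window was chosen by the positions of hotspots in these same lists, so the low number of regions is a description and carries no test.

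The libraries came from untreated 3134 cells, a mouse mammary epithelial line, with 2 libraries each for a monoclonal antibody to Brg1, for CHD4 and for Snf2h. All 6 share the one line and condition. Input DNA (2 libraries) was not analysed here, so copy number, mappability and background in the window cannot be told apart from binding. Whether the replicates were separate cultures is not stated in the labels, so the spread between them may be technical. The labelled extraction steps describe a DNase I digestion, so the immunoprecipitation protocol is unknown here.

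Chromatin remodelers use ATP to slide, evict or space nucleosomes. Brg1 is the motor of SWI/SNF complexes, which open chromatin at enhancers and promoters. CHD4 is the motor of the NuRD complex, which also carries histone deacetylases, and Snf2h is the motor of ISWI complexes, which space nucleosomes evenly. A gene desert is a long stretch of the genome with few genes. The name gene desert was not checked at these coordinates, because no gene was placed on mm9 here. As background, the genes from Pcdh17 to Slitrk5 are known to lie on distal chromosome 14. They include the protocadherins Pcdh17, Pcdh20 and Pcdh9 and the Slitrk1, Slitrk6 and Slitrk5 genes for neuronal adhesion proteins. In gene order in the RefSeq table of GRCm38.p6 they span 36 of the 850 protein-coding genes of the chromosome. Among the 36 are also genes used by epithelial cells, such as the transcription factor gene Klf5 and Spry2, an inhibitor of receptor tyrosine kinase signalling. No hotspot was assigned to any of these genes.

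Regions where both libraries of an antibody marked the same place were scarce in the window. It held 235 replicated regions, 4.28% of its regions (95% Wilson interval 3.78% to 4.85%), against 2021 in the rest of the chromosome, 11.5% of its regions (11% to 12%). Genome-wide, 11.5% of regions were replicated. This came to 6.71 replicated regions per Mb in the window and 23.5 per Mb in the rest, a ratio of 0.285. The window is 29.0% of the chromosome span covered by the lists and held 10.4% of its replicated regions. Regions of any kind were less depleted, at 157 per Mb in the window and 205 per Mb in the rest. The ratio of replicated regions moved with the libraries required, because a lone library puts all its hotspots in its class. Leaving out Brg1 replicate 1 gave 0.486, and leaving out Brg1 replicate 2 gave 0.732. Leaving out CHD4 replicate 1 gave 0.622 and CHD4 replicate 2 gave 0.405. Leaving out Snf2h replicate 1 gave 0.637 and Snf2h replicate 2 gave 0.579.

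**Figure D1:**
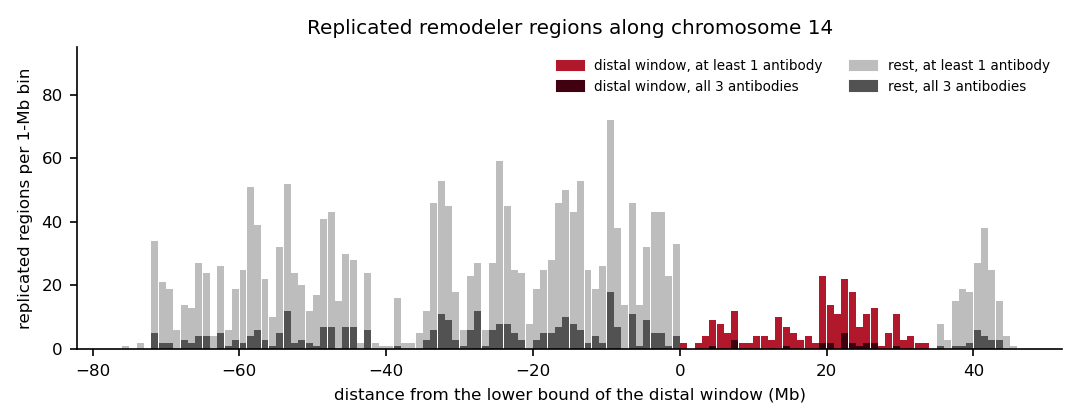
Replicated regions in each 1-Mb bin (y axis) along chromosome 14, by distance from the lower bound of the distal window in Mb (x axis). Light bars count regions with at least 1 replicated antibody and dark bars those with all 3. Bins of the window, in red, reach 23 at most with a median of 4, against a highest value of 72 and a median of 23 in the rest.

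The lists differed in how far their own hotspots thinned out. Brg1 replicate 1 had 33.4 hotspots per Mb in the window and 46.0 in the rest, and Brg1 replicate 2 had 47.2 in the window and 100.2 in the rest. CHD4 replicate 1 had 6.63 per Mb in the window and 15.3 in the rest, and CHD4 replicate 2 had 68.6 in the window and 113 in the rest. Snf2h replicate 1 had 11.7 per Mb in the window and 11.5 in the rest, and Snf2h replicate 2 had 21.2 in the window and 30.6 in the rest. Thus 5 lists had fewer hotspots per Mb in the window, with ratios of 0.432 to 0.726, and Snf2h replicate 1 was level at 1.02. By covered base pairs the ratio of that library was 0.881. The ratio also differed between libraries of one antibody. Brg1 replicates 1 and 2 had 0.726 and 0.471, CHD4 replicates 1 and 2 had 0.432 and 0.608, and Snf2h replicates 1 and 2 had 1.02 and 0.695. These densities are what the window was chosen by and are given without a test.

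Hotspots in the window were low, and this held in every list. Height is the maximum tag density of a hotspot, in the authors' units, whose scaling neither the labels nor the file headers state, and it is compared only within a list. Median height was 5.79 in the window and 13.9 in the rest for Brg1 replicate 1, and 2.53 in the window and 3.16 in the rest for Brg1 replicate 2. It was 4.85 in the window and 12.5 in the rest for CHD4 replicate 1, and 2.47 in the window and 3.21 in the rest for CHD4 replicate 2. For Snf2h replicate 1 it was 5.54 in the window and 13.2 in the rest, and for Snf2h replicate 2 it was 3.07 in the window and 8.98 in the rest. As percentiles of each whole-genome list, the medians lay between 5.45 and 24.6 in the window and between 40.9 and 46.0 in the rest. The mean difference was -31.9 ± 7.79 percentile points (SD, n = 6 libraries), lower in the window in 6 of 6 (exact sign-flip permutation test, two-sided, p = 0.0312, the smallest that 6 libraries allow, and 0.0312 after Benjamini-Hochberg adjustment over 4 such tests). The libraries share one genome, so the test covers the spread between libraries and not between regions. The window was chosen for thinly spread hotspots, and hotspots were also low in thin parts of the rest. In 1-Mb bins of the rest with at most 5 replicated regions the medians were 2.52 to 18.7. In its other bins they were 43.0 to 50.2. The p-value takes no account of this choice of window. The test flips each library on its own, although same-numbered libraries deviated together in counts per 1-Mb bin (r = 0.182 to 0.471). With the libraries of each number flipped together the exact permutation p was 0.5, the smallest that 2 numbers allow.

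**Figure D2:**
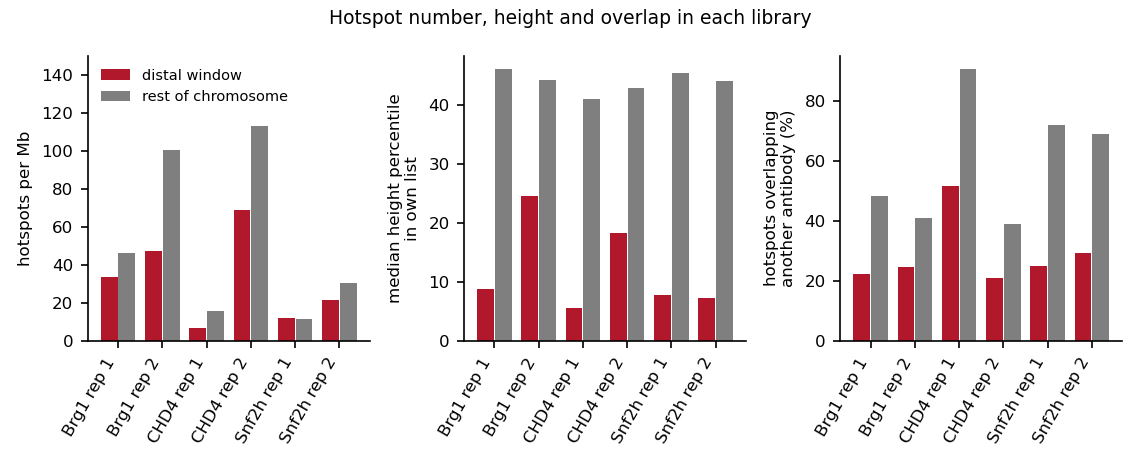
Hotspots per Mb (left), median percentile of maximum tag density within the list (middle) and percent of hotspots that overlap a hotspot of another antibody (right) in each of the 6 libraries, in the distal window (red) and in the rest of chromosome 14 (grey). Height and overlap were lower in the window in all 6 libraries, while the first Snf2h library had 11.7 hotspots per Mb in the window and 11.5 in the rest.

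Sorting each list into deciles of height, a split chosen after seeing the data, showed that the shortage grew with height. In the highest decile, hotspots per Mb in the window were between 0.0372 and 0.106 of those in the rest. That decile held 33 window hotspots of Brg1 replicate 2, 25 of CHD4 replicate 2, 6 of Brg1 replicate 1, 3 of Snf2h replicate 2 and 1 each of CHD4 replicate 1 and Snf2h replicate 1. In the lowest decile the window was denser than the rest in all 6 lists. The ratio there was 8.19 for Snf2h replicate 1, 5.93 for Snf2h replicate 2, 4.89 for Brg1 replicate 1 and 2.54 for CHD4 replicate 1. It was 1.28 for CHD4 replicate 2 and 1.01 for Brg1 replicate 2, the lists that reach down to a Z score of 2.00, where the other lists start between 8.50 and 9.49. In Snf2h replicate 1, whose total was level, 60.1% of window hotspots and 7.48% of those in the rest fell in the lowest decile.

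**Figure D3:**
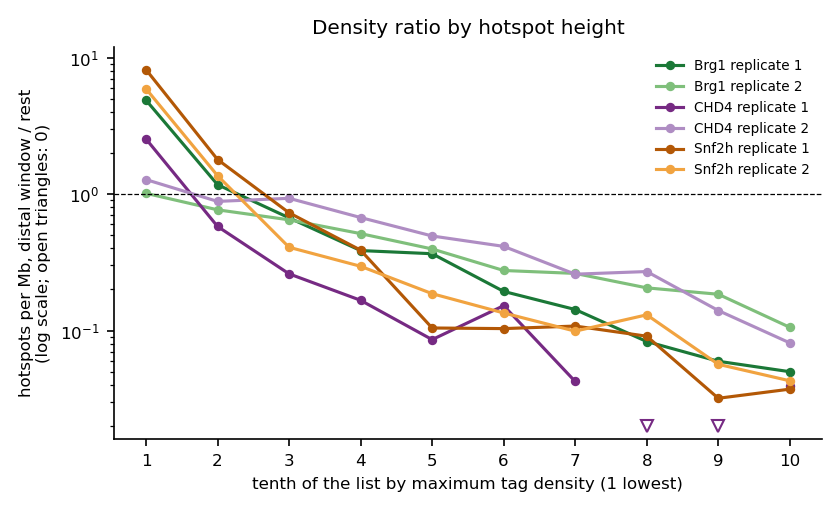
Hotspots per Mb in the distal window divided by those in the rest of chromosome 14 (y axis, log scale), for each decile of maximum tag density of a list (x axis, 1 is the lowest). Each line is 1 library and the dashed line marks equal density. All 6 lines start at or above 1 and end between 0.0372 and 0.106, and open triangles mark the 2 deciles where CHD4 replicate 1 had no hotspot in the window.

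The Z score, the authors' measure of enrichment of a hotspot, did not move one way in the window. Median Z score was 14.6 in the window and 14.8 in the rest for Brg1 replicate 1, and 6.92 in the window and 4.81 in the rest for Brg1 replicate 2. It was 10.9 in the window and 13.1 in the rest for CHD4 replicate 1, and 5.49 in the window and 4.01 in the rest for CHD4 replicate 2. It was 10.5 in the window and 11.2 in the rest for Snf2h replicate 1, and 11.6 in the window and 12.6 in the rest for Snf2h replicate 2. In percentiles of each list, the window was higher by 18.4 points in Brg1 replicate 2 and by 20.3 points in CHD4 replicate 2, the lists that reach down to a Z score of 2.00. In the other 4 lists the window minus the rest was -18.7 points for CHD4 replicate 1, -9.42 and -7.23 points for Snf2h replicates 1 and 2 and -0.900 points for Brg1 replicate 1. The mean over lists that moved both ways was 0.404 points (exact sign-flip permutation p = 0.938, two-sided). Heights still differed within tertiles of the Z score on chromosome 14: median height in the window over that in the rest was 0.385 to 0.875 in the lowest tertile, 0.353 to 0.778 in the middle one and 0.291 to 0.625 in the highest, over the 6 lists. In all 6 lists and all 3 tertiles the median window hotspot had a lower tag density at its summit than the median hotspot of that tertile elsewhere on the chromosome. Z scores were not matched within a tertile. The tertile split was chosen after seeing the data. The sources do not say how the Z score treats local background, and its part in the number of window hotspots was not tested.

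A smaller share of window hotspots overlapped other lists. Overlap follows from the positions that the window was chosen by, and fewer hotspots in the other lists leave fewer to overlap, so these shares are a description without a test. The percent that overlapped a hotspot of another antibody was 22.1% in the window and 48.4% in the rest for Brg1 replicate 1, and 24.8% in the window and 41.0% in the rest for Brg1 replicate 2. It was 51.7% in the window and 90.8% in the rest for CHD4 replicate 1, and 20.9% in the window and 39.0% in the rest for CHD4 replicate 2. For Snf2h replicate 1 it was 24.8% in the window and 72.2% in the rest, and for Snf2h replicate 2 it was 29.3% in the window and 69.1% in the rest. The mean difference was -31.1 ± 12.8 percentage points (SD over 6 lists that enter each other's shares), and -8.98 points among the taller 50% of each list. Overlap with the other library of the same antibody, which is the rule for replication, ranged from 3.83% to 40.1% in the window and from 11% to 83.4% in the rest. Its mean difference was -24.1 ± 16.4 points (SD over 6 lists that form 3 pairs), and -6.92 points in lists of equal size. Widths of hotspots were smaller in the window, with medians of 298 to 390 bp against 355 to 474 bp in the rest (log2 ratio -0.24 ± 0.07, SD, n = 6, lower in 6 of 6, exact sign-flip permutation p = 0.0312, 0.0312 adjusted, and 0.5 with the libraries of each replicate number flipped together). As for height, the p-value for width takes no account of how the window was chosen. The direction was lost among taller hotspots, with a mean log2 ratio of width of 0.0796 in the taller 50% of each list and 0.00986 in lists of equal size.

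Most window regions rested on 1 list. A hotspot in exactly 1 list was found at 4835 window regions, 88.1% (95% Wilson interval 87.2% to 88.9%), and at 76.7% of regions in the rest (76.1% to 77.3%), against 76.6% genome-wide. Regions seen in 6 lists numbered 22 in the window (0.401%) and 323 in the rest (1.83%). Regions marked only by Snf2h replicate 1 were denser in the window, at 8.26 per Mb against 2.88 per Mb in the rest, and so were those marked only by CHD4 replicate 1, at 2.94 per Mb in the window and 1.05 in the rest. Regions marked only by Snf2h replicate 2 came to 14.4 per Mb in the window and 9.17 in the rest, and those only by Brg1 replicate 1 to 24.5 in the window and 20 in the rest. For the 2 lists with the lowest Z scores the order was the other way, with 34.1 per Mb in the window and 55.7 in the rest for Brg1 replicate 2, and 53.9 per Mb in the window and 68.4 in the rest for CHD4 replicate 2.

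The mix of remodelers at the 235 replicated window regions was tilted towards regions where only 1 remodeler was replicated. Brg1 was replicated at 168 of them (71.5%, 95% Wilson interval 65.4% to 76.9%), against 1721 of 2021 in the rest (85.2%, 83.5% to 86.6%). CHD4 was replicated at 84 (35.7%, 29.9% to 42.1%), against 1008 in the rest (49.9%, 47.7% to 52.1%). Snf2h was replicated at 71 (30.2%, 24.7% to 36.4%), against 537 in the rest (26.6%, 24.7% to 28.5%). Per Mb, the window held 0.240 of the Brg1 density of the rest, 0.204 of its CHD4 density and 0.324 of its Snf2h density. At 66 replicated window regions (28.1%) there were 2 or 3 remodelers, against 922 in the rest (45.6%). The intervals cover counting error only, regions of 1 chromosome are not independent, and these shares carry no test.

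By class, Brg1 alone was the most frequent, at 112 window regions and 856 in the rest, and 4.81% of all regions genome-wide were of this class. Regions of all 3 remodelers numbered 22 in the window and 323 in the rest (1.96% of regions genome-wide), and those of Brg1 with CHD4 27 in the window and 475 in the rest (2.43% genome-wide). Per Mb these classes had the lowest ratios, 0.167 for all 3 and 0.139 for Brg1 with CHD4. Snf2h alone was the least depleted, at 32 window regions and 90 in the rest (0.633% genome-wide), a ratio of 0.873. As a share of all regions it was close in each set, at 0.583% in the window and 0.511% in the rest. Since the other classes were scarcer in the window, it made up 13.6% of replicated window regions (95% Wilson interval 9.81% to 18.6%) and 4.45% of those in the rest (3.64% to 5.44%). CHD4 alone numbered 25 in the window and 153 in the rest (0.858% genome-wide), CHD4 with Snf2h 10 in the window and 57 in the rest (0.396%), and Brg1 with Snf2h 7 in the window and 67 in the rest (0.405%). Leaving out each library in turn kept the ratio of the regions of all 3 between 0.158 and 0.190 and that of Brg1 with CHD4 between 0.118 and 0.181. The Snf2h-alone ratio came to 1.36 when Brg1 replicate 1 was left out and to 1.98 when Snf2h replicate 2 was. It was 0.149 in the taller 50% of each list and 0.267 in lists of equal size, where the regions of all 3 were at 0.0472 and 0.0294. The remaining classes moved too. Brg1 alone was at 0.926 without Brg1 replicate 2 and 0.522 without Brg1 replicate 1, and CHD4 alone was at 1.18 without CHD4 replicate 2 and 0.705 without CHD4 replicate 1. CHD4 with Snf2h, at 0.431, came to 1.47 with Brg1 replicate 1 left out, on only 3 window regions and 5 in the rest. It came to 0.279 with Snf2h replicate 1 left out, and in the taller 50% of each list it had 0 window regions and 22 in the rest. Brg1 with Snf2h, at 0.256, was at 0.892 without CHD4 replicate 1, on 4 window regions and 11 in the rest.

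**Figure D4:**
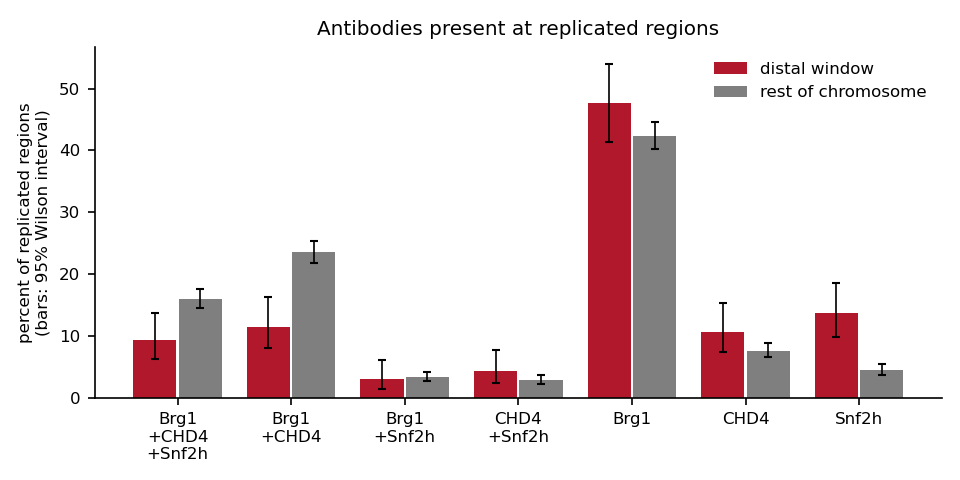
Percent of replicated regions (y axis) in each class of remodelers (x axis), in the distal window (red, 235 regions) and in the rest of chromosome 14 (grey, 2021 regions), with 95% Wilson intervals. Regions of all 3 and of Brg1 with CHD4 are a smaller share in the window, and Snf2h alone is a larger one, 13.6% against 4.45%.

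The Snf2h-alone regions of the window were low ones. Their median height percentile was 9.69 in Snf2h replicate 1 and 10.2 in Snf2h replicate 2, against 42.0 in Snf2h replicate 1 and 48.1 in Snf2h replicate 2 for the same class in the rest. Of the 32, 19 (59.4%) had no hotspot of any kind in a Brg1 or CHD4 list, against 23 of 90 in the rest (25.6%). Among Brg1-alone regions, 51 of 112 in the window (45.5%) and 276 of 856 in the rest (32.2%) had no hotspot of another antibody. Among CHD4-alone regions it was 9 of 25 in the window (36%) and 27 of 153 in the rest (17.6%). Brg1-alone regions were at percentiles 19.9 and 44.2 of the Brg1 lists in the window and 58.8 and 78.0 in the rest. CHD4-alone regions were at 7.59 and 42.8 of the CHD4 lists in the window and 24.4 and 74.5 in the rest.

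Regions of all 3 remodelers were nearer to those of the rest in height percentile. Their differences were -32.3 to -3.23 points over the 6 lists, against -37.6 to -19.6 over all hotspots. A region takes its tallest hotspot of a list, whereas the latter range counts every hotspot. This was not particular to the class. Regions of Brg1 with CHD4 differed by -24.1 and -3.16 points in Brg1 replicates 1 and 2, and by -24.7 and -4.74 in CHD4 replicates 1 and 2. The 22 window regions of all 3 had a median percentile of 64.1 in Brg1 replicate 1 and 89.9 in Brg1 replicate 2, against 84.6 and 93.1 in the rest. In CHD4 replicates 1 and 2 the medians were 30.4 and 87.7 in the window and 62.4 and 94.7 in the rest. In Snf2h replicates 1 and 2 they were 32.6 and 61.6 in the window and 64.9 and 82.6 in the rest. All 6 medians were lower in the window, though the window regions spread widely, for example from 16.9 to 96.9 in Snf2h replicate 2. Percentiles are not comparable between lists, since the long lists with low Z scores hold many low hotspots. In median tag density, window over rest, the class was likewise nearer than all hotspots, except in Brg1 replicate 2 and CHD4 replicate 2. Its median was 13.92 in the window and 18.98 in the rest for Brg1 replicate 2. For CHD4 replicate 2 it was 7.413 in the window and 11.86 in the rest. Over all hotspots the ratio was closer to equal, at 0.800 in Brg1 replicate 2 and 0.769 in CHD4 replicate 2. The regions of all 3 were of like width, with a median of 1541 bp in the window and 1422 bp in the rest.

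**Figure D5:**
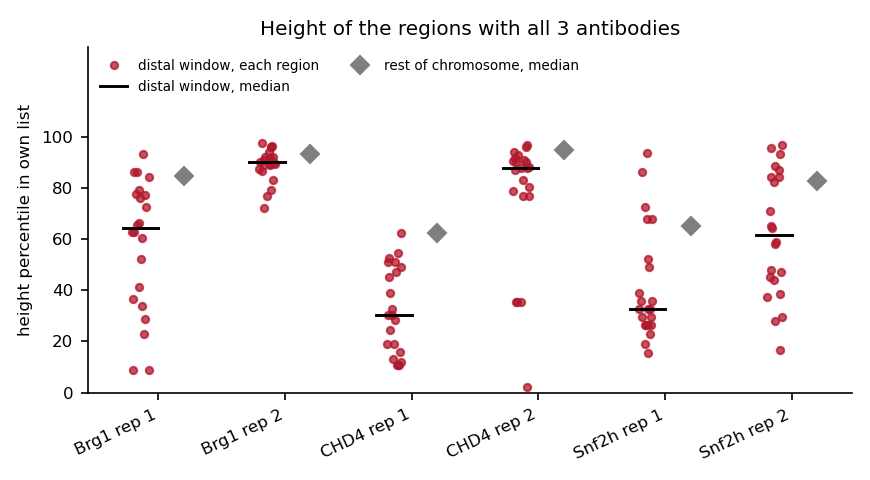
Height percentile within each library's own list (y axis) of the 22 regions with all 3 remodelers in the distal window, 1 red point per region and library, with the median as a black line. Grey diamonds give the median of the 323 regions of this class in the rest of chromosome 14, above the window median in all 6 libraries.

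The region of all 3 with the highest mean percentile over the 6 lists, chr14:106294041-106298607, was 4567 bp wide. Its height was 19.7 and 16.3 for Brg1. For CHD4 it was 16.6 and 8.40, and for Snf2h 19.4 and 43.5. Snf2h replicate 2 placed it at percentile 95.5, its highest placing. The next, chr14:105654433-105655715, had Brg1 heights of 64.9 and 38.6, the tallest of the class in both Brg1 lists. Its CHD4 heights were 14.9 and 14.8 and its Snf2h heights 14.5 and 14.9. Brg1 placed it at percentiles 93.1 and 97.5, and Snf2h at 52.3 and 65.2. The region chr14:102006670-102008784 had Snf2h percentiles of 86.4 and 84.3. Its Brg1 percentiles were 62.9 and 90.1 and its CHD4 percentiles 38.8 and 92.8. The remaining ones of the first 5 were chr14:106131101-106132813, at 86.3 and 89.2 for Brg1, and chr14:103744662-103746549, at 35.7 and 93.3 for Snf2h. The CHD4 lists placed the latter at 47.2 and 94.0, and percentiles in lists of unlike length are not comparable.

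A region of Brg1 with CHD4 held the tallest CHD4 hotspots of the window. This region, chr14:106061580-106063134, had heights of 39.4 and 37.0 for Brg1 and 29.8 and 16.3 for CHD4, and its CHD4 percentiles of 90.6 and 97.5 were above those of every region of all 3, which reached 62.4 and 96.8. Snf2h replicate 2 also had a hotspot there, of 17.0, and Snf2h replicate 1 had none, so the class rests on the rule for replication and does not show that Snf2h was absent. The others were chr14:105986360-105990455, with Brg1 heights of 38.2 and 38.1, and chr14:102196898-102198522, with Brg1 heights of 63.1 and 46.5. Snf2h replicate 2 had a hotspot in these too, of 13.0 and 11.3. The hotspot of 46.5 was the tallest of Brg1 replicate 2 in the window.

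The leading regions of the other classes follow, with heights in the lists of their own antibodies in replicate order. Of Brg1 with Snf2h, chr14:102128390-102129523 led with heights of 22.0 and 7.59 for Brg1 and 19.4 and 19.2 for Snf2h, followed by chr14:99498410-99499874 and chr14:109613884-109614607. CHD4 replicate 2 also had a hotspot in each, of 7.17, 5.93 and 3.71. Of CHD4 with Snf2h, chr14:103868667-103870007 led with 15.6 and 9.64 for CHD4 and 13.9 and 11.1 for Snf2h, followed by chr14:103450434-103451062 and chr14:99541370-99542117. All 3 of these CHD4 and Snf2h regions also had a hotspot in Brg1 replicate 2, of 15.2, 5.53 and 4.27. The leading regions of Brg1 alone were chr14:105484380-105485151, with heights of 51.0 and 6.48, chr14:106014659-106015557, with 30.7 and 12.8, and chr14:102252788-102253526, with 23.2 and 18.5. Each also had a CHD4 replicate 2 hotspot, and the last had one of 8.75 in Snf2h replicate 2. Of Snf2h alone, chr14:103486710-103488284 led with 16.6 and 11.8, and chr14:103949504-103950147 and chr14:101778414-101779058 followed with 8.31 and 18.2 and with 16.6 and 5.44. These too held hotspots of other antibodies. The first had 7.43 in Brg1 replicate 2 and 6.42 in CHD4 replicate 2. The second had 23.7 in Brg1 replicate 1, and the third had 11.6 in Brg1 replicate 1 and 3.95 in CHD4 replicate 2.

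The 2 leading regions of CHD4 alone lay apart from those above, in the first stretch of the window. These, chr14:84840604-84841410 and chr14:84859311-84860371, had heights of 7.97 and 9.64 and of 7.63 and 7.66 in the CHD4 lists. Brg1 replicate 2 also had a hotspot in each, of 5.69 and 4.59. The 2 regions belong to a group of 6 replicated regions within 37.3 kb that holds 3 regions of CHD4 alone, 1 of Brg1 with CHD4, 1 of Brg1 alone and 1 of all 3, chr14:84843014-84843905. Neighbours in this group lie as near as 1.604 kb. The next CHD4-alone region was chr14:100030207-100030936, with 7.63 and 7.17. It also had a hotspot of 14.2 in Brg1 replicate 2 and of 9.70 in Snf2h replicate 1.

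Replicated regions were unevenly spread inside the window, and a split into 3 stretches was chosen after seeing this. The first 19 Mb held 88 (4.63 per Mb), the next 8 Mb held 119 (14.9 per Mb) and the last 8 Mb held 28 (3.5 per Mb). The middle stretch thus had 50.6% of the replicated regions, 16 of the 22 regions of all 3, and 20 of the 23 leading regions named above. Brg1 was replicated at 65.9%, 79.0% and 57.1% of replicated regions in the first, middle and last stretch, CHD4 at 29.5%, 43.7% and 21.4%, and Snf2h at 25.0%, 31.1% and 42.9%. In the last stretch Snf2h alone accounted for 10 of the 28. The densest Mb began at 99000000, with 23 replicated regions, followed by those at 102000000, with 22, and at 103000000, with 18. The Mb at 102000000 held 5 regions of all 3. A run of 818 kb, chr14:105484380-106302578, held 21 replicated regions, 4 of them with all 3 remodelers and 6 with Brg1 and CHD4.

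Elsewhere in the window long stretches had no replicated region. Stretches were measured between neighbouring replicated regions only. The stretches before the first replicated region of the window, at 80615469, and after the last, at 113395924, were not counted or ranked. The longest of those measured ran for 1687 kb at chr14:80669569-82357000 and held 206 regions that were not replicated, 189 of them in 1 list. The next measured were 1416 kb at chr14:88308957-89725397 and 1237 kb at chr14:83504577-84741457. Measured stretches of more than 500 kb numbered 13 in the window and 12 in the rest and covered 32.4% of the window and 14.1% of the rest. The longest measured in the rest, at 2014 kb, was longer than any measured in the window. The Mb bins at 81000000 and 114000000 had no replicated region, and that at 107000000 had 1. Regions of all 3 nevertheless had company: the median distance to the nearest other replicated region was 6.09 kb in the window and 4.20 kb in the rest, and 16 of 22 in the window and 277 of 323 in the rest had one within 20 kb. The nearest pair of such regions in the window, chr14:105654433-105655715 and chr14:105657516-105658807, lay 1.80 kb apart.

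Bins with few replicated regions were also found outside the window. Of the 35 bins of 1 Mb in the window, 21 held at most 5 replicated regions, and so did 15 of the 87 bins touched by the rest, a cut chosen after seeing the data. In those sparse bins the median height percentile was lower in the window in 4 lists. It was 4.74 in the window and 11.6 in the rest for Snf2h replicate 1, and 3.34 in the window and 11.2 in the rest for Snf2h replicate 2. It was 4.31 in the window and 8.83 in the rest for Brg1 replicate 1, and 1.80 in the window and 2.52 in the rest for CHD4 replicate 1. The medians were equal in the second libraries, at 18.7 for Brg1 and 18.3 for CHD4 in both sets of bins. The percent of hotspots that overlapped another antibody ran from 11% to 19.6% in the window and from 16.4% to 44.4% in the rest and was lower in the window in all 6 lists, and 2.10% of regions were replicated in the window and 2.30% in the rest. In the bins with more than 5 the medians did not overlap. They ran from 13.3 to 30.1 over the 14 bins of the window and from 43.0 to 50.2 over the 72 bins of the rest, and 6.55% of regions were replicated in the window and 12.2% in the rest. Bins were sorted by their number of replicated regions, so the shares replicated in each set follow in part from the cut. The sparse bins differed in regions of any kind, at 133 per Mb in the window and 87 per Mb in the rest, where they include bins at both ends of the covered span.

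Of the 8 regions nearest the bounds, 7 were marked by 1 list. Just inside the lower bound, chr14:80001107-80001448 and chr14:80003984-80004562 were marked by CHD4 replicate 2 alone, at 2.47 and 3.95. Just outside it, chr14:79988104-79988675 was marked by Brg1 replicate 2 alone, at 2.85, and chr14:79986636-79988037 was a region of all 3, at 23.2 and 3.48 for Brg1. Just inside the upper bound, chr14:114983745-114984223 and chr14:114974441-114974692 were marked by Brg1 replicate 2 alone, at 2.69 and 1.90. Just outside it, chr14:115004710-115004996 was marked by Snf2h replicate 2 alone, at 2.13, and chr14:115008081-115008368 by CHD4 replicate 2 alone, at 2.72.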

How the data were processed

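The submitters' processing notes name mm9 and CASAVA 1.6 without their role. Each library has its own list, so hotspots were called per library by the authors. No source used here names the caller, its thresholds or how inputs entered. Each deposited list gives a maximum and an average tag density (a signal of unstated scaling), a Z score of enrichment and a p-value per hotspot, per the file headers. The deposited p-value was not used. Depth is unknown.

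Intervals were read as closed in Python 3.11.15 (pandas 2.3.3, numpy 2.4.6 and scipy 1.17.1). Figures used matplotlib 3.10.9. The 6 lists held 32310 to 293135 hotspots. Hotspots were merged over all lists. Height percentiles rank a hotspot in its whole list. Shares overlapped are of a list's hotspots on chromosome 14. Its span ran from the lowest start to the highest end in the lists, and the rest is that span less the window, 85.9 Mb. Differences in height and width between the window and the rest were tested by exact sign flips over libraries, which take no account of how the window was chosen. Overlap and density, planned as tests, follow from the positions that chose the window and are given as descriptions. Merging, classes and tests were tested on simulated data. Groups and replicate numbers came from sample titles. Same-numbered libraries deviated together in counts per 1-Mb bin (r = 0.182, 0.471 and 0.257 for the 3 antibody pairs). Replicate 1 was also the shorter list for each antibody, and neighbouring bins are not independent. No label says that same-numbered libraries were made together, and this was not tested.

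The text names the 5 highest regions of all 3 antibodies, the 3 highest of each other class, the densest and emptiest bins and the regions beside the bounds. It also names the longest stretches between neighbouring replicated regions. Members, gene list and tests were chosen with earlier results of these data known. Planned motif and promoter comparisons need an mm9 genome and were not run; no sequence is shown. Alternatives are given in the closing section.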

Additional observations from a re-analysis of the deposited data

How the results depend on the processing

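With only the taller 50% of hotspots, with lists of equal size, and with hotspots at a Z score of at least 9.49 in all lists, the ratio of replicated regions per Mb was 0.106, 0.107 and 0.240. In these settings 9.97%, 8.93% and 6.09% of window regions were replicated, against 22.6%, 44.1% and 25.6% in the rest. With the window narrowed by 5 Mb at each side the ratio was 0.352 and the share 4.87%, against 11.5% in the rest. By covered base pairs the ratio was 0.224. With hotspots set to 500 bp the share was 4.91%, against 12.4% in the rest. When either library sufficed, 100% of regions were assigned by construction, and 2.13% held all 3 antibodies, against 7.39% in the rest. At the common Z score 0.609% held all 3, against 4.10% in the rest. Without each library in turn the ratio ran from 0.405 to 0.732, the share replicated from 10.04% to 45.6% and the share with all 3 from 0.461% to 0.807%, since a lone library then needs no second one. In the rest these shares ran from 14.2% to 55.4% and from 2.03% to 3.76%.

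The height difference kept its sign with average tag density (-24.5 points) and reversed to 0.404 points with the Z score. The width difference reversed to a log2 ratio of 0.0796 in the taller 50% and 0.00986 in lists of equal size. Overlap with other antibodies was -8.98 points in the taller 50%, and overlap with the same antibody -6.92 points in lists of equal size. The cause was not tested. Without each library, height ran from -34.3 to -30.7 points, width from -0.25 to -0.22, overlap with other antibodies from -33.2 to -28.3 and with the same antibody from -25.2 to -23.5. These cannot pass 0.05 with 5 or 4 libraries. With a replicate block, chosen after seeing the data, the differences of -31.9 points in height and -0.24 in width kept their value, and their exact permutation p of 0.5 is the smallest that flips of 2 replicate numbers allow. The antibodies accounted for 53.8% of the squared spread of the log2 density ratios, 58.3% with a replicate block and 29.1% to 71.6% without each library. Of the 15 ways to split the libraries into pairs, 6 gave a share of at least 53.8%, so the share does not set the antibodies apart. These shares are a description of what the window was chosen by, and the smallest exact permutation p, 0.0667, could not pass 0.05. Tag depth per library is unknown, so low hotspots cannot be weighed by counting error.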
